A study of Mus musculus with 16 samples.

Results

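The 9 genes described here carry out or control lipolysis, the stepwise release of fatty acids and glycerol from stored triglyceride. They were taken by symbol from both deposited tables of 22322 genes: Pnpla2, Lipe, Mgll, Abhd5, Adrb3, Pde3b, Acvr1c, Aqp7 and Gk. The rule itself used no measured value, but the members were chosen with earlier results of these data known. All 9 were present in both tables. The study measured RNA in liver and white adipose tissue of diet-induced obese (DIO) mice by sequencing poly(A)-selected RNA. One arm (labelled H100) received halofuginone, a plant alkaloid derivative that inhibits prolyl-tRNA synthetase, at 100 μg/kg into the peritoneum every 2 days, and the other (labelled HFD) received vehicle on the same schedule. Tissue was taken after 8 weeks. Liver had 5 libraries per arm and fat had 3 per arm. Both arms were DIO mice, and no lean group was among the samples. The labels name no strain, sex, age or fat depot, and do not say whether libraries were separate animals or whether liver and fat libraries with the same number shared a mouse, so p-values measure the spread between these libraries.

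In the fasted or stimulated adipocyte, catecholamines bind the β3-adrenergic receptor encoded by Adrb3, adenylyl cyclase makes cAMP and protein kinase A phosphorylates the droplet coat and hormone-sensitive lipase. The lipase ATGL (gene Pnpla2), with its coactivator CGI-58 (Abhd5), takes the first fatty acid from triglyceride, hormone-sensitive lipase (Lipe) acts on diglyceride, and monoglyceride lipase (Mgll) releases glycerol. Insulin opposes this through the cAMP phosphodiesterase of Pde3b, and ligands of the receptor ALK7 (Acvr1c) restrain lipolysis in fat. Glycerol leaves the adipocyte through the channel of Aqp7, and glycerol kinase (Gk) phosphorylates it for reuse, mainly in liver.

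Promoter sequence is shown to describe the letters near the starts of 3 members, Mgll, Lipe and Gk. RefSeq windows of 300 bases (250 before and 50 after the annotated start) were found for 7 of the 9 members, in 11 windows, and not for Adrb3 or Pde3b. Motifs searched beforehand were the cAMP response element TGACGTCA (1.79% of all 32851 promoter windows), the CEBP-ATF element TTGCATCA (0.895%) and the nuclear receptor direct repeat DR1 (0.0396%), on both strands, and these letters were not in the members' windows. The E-box CACGTG, which reads the same on both strands and lies in 7.15% of all promoter windows, was picked after the members' windows had been read. Its presence in 3 of the 11 follows from that choice and says nothing about the genes that carry it. Each window below is 40 bases, 5′ to 3′ on the gene's strand, with the motif in capitals.
Mgll: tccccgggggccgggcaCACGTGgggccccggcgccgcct
Lipe: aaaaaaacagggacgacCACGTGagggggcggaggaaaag
Gk: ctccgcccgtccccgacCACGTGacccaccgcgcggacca
In GRCm38.p6 these lie at chr6:88724351-88724390 (plus strand, motif beginning 44 bases before the start), chr7:25396120-25396159 (minus strand, 155 bases before) and chrX:85776855-85776894 (minus strand, 58 bases before). A match describes letters only, and no binding was measured.

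Levels were first compared within the vehicle arm, per gene length, as the deposited FPKM (fragment counts corrected for transcript length and sequencing depth). In fat the 3 lipase genes led: Pnpla2 at 1130.0 ± 501 FPKM (SD, n = 3), Lipe at 509.8 ± 228 and Mgll at 328 ± 142. Neighbours in that order overlapped in their libraries. Below Mgll, with no overlap, came Abhd5 at 67.8 ± 11.8, Aqp7 at 63.7 ± 30.9, Adrb3 at 39.8 ± 18.9 and Pde3b at 31.4 ± 8.58, each overlapping the next. Acvr1c at 4.55 ± 0.790 FPKM and Gk at 3.52 ± 1.77 were lowest, overlapped each other and lay apart from the rest. In liver the order was another. Mgll was highest at 64.8 ± 9.14 FPKM (SD, n = 5), followed without overlap by Pnpla2 at 37.0 ± 1.49 and Gk at 29.8 ± 3.41. Abhd5 at 14.8 ± 3.07 FPKM overlapped Pde3b at 9.44 ± 0.793, and Lipe was lower than both at 5.71 ± 0.567. Adrb3 in liver was at 0.286 ± 0.0573 FPKM. Aqp7 and Acvr1c were close to absent from vehicle livers, with 1 to 7 and 0 to 3 counts per library.

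**Figure D1:**
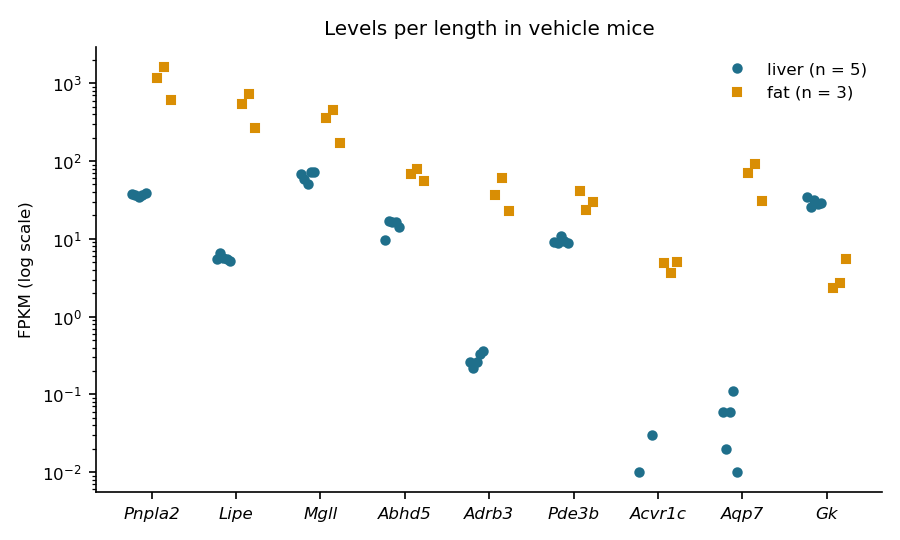
FPKM of the 9 members in each vehicle library of liver (5) and fat (3), on a log axis. Libraries at 0 FPKM cannot be drawn on it. Lipase genes lead in fat, from 1130 FPKM for Pnpla2 on average, while Gk is the only member drawn higher in liver (29.8 FPKM) than in fat (3.52 FPKM).

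Set against each other in one fit of all 16 libraries, all 9 members differed between vehicle fat and vehicle liver by edgeR (quasi-likelihood test, p adjusted over all genes by Benjamini-Hochberg), as did 72.3% of the 14853 genes tested. Of the 9, 8 were higher in fat (40.9% of all genes) and Gk was higher in liver (31.5%). The log2 difference (fat minus liver) was 5.15 (SE 0.25, edgeR adjusted p 5.73e-11) for Lipe and 3.70 (SE 0.27, edgeR adjusted p 5.26e-09) for Pnpla2. It was 1.16 (SE 0.34, edgeR adjusted p 0.00571) for Mgll, 1.00 (SE 0.21, edgeR adjusted p 0.000468) for Abhd5 and 0.54 (SE 0.19, edgeR adjusted p 0.0186) for Pde3b. For the receptor gene Adrb3 it was 5.79 (SE 0.49, edgeR adjusted p 3.17e-08). Gk differed by −4.25 (SE 0.46, edgeR adjusted p 5.37e-07). These sizes depend on the scaling, since library size alone moves the median over all genes by 1.19 on the log2 scale in the direction of fat. Without vehicle fat replicate 1 the Pde3b difference was 0.31 (edgeR adjusted p 0.186). Tissue was sequenced whole, so fewer cells of a type and less RNA per cell cannot be told apart in any of these values.

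Before the drug effect, some libraries need naming. Halofuginone liver replicate 1 lay near the vehicle arm: its hepatocyte marker sum (10 genes) was 117004 CPM (counts over the TMM-scaled library total), against 47159 to 95216 in the other treated livers and 125784 to 139141 in vehicle. Its sum over 8 lymphocyte markers was 11.2 CPM, against 1.34 to 4.04 in the other 9 livers. It was on the treated side for the adipsin gene Cfd, with 0 counts, against 0 to 2 in the other treated livers and 172 to 609 in vehicle. A mislabelled or exchanged sample and a weaker exposure to the drug cannot be told apart in these files, and every liver fold change that includes this library depends on its label. Vehicle fat replicate 3 had the lowest adipocyte marker sum (13 genes, 24207 CPM), the highest macrophage sum (10 genes, 10781 CPM against 3177 to 5745) and the highest epididymis sum (6 genes, 64.4 CPM against 7.02 or less in the others). Halofuginone fat replicate 1 had the highest brown fat sum (7 genes, 105 CPM against 7.15 to 13.7 in the other fat libraries). Library totals were 20309956 to 31980683 counts in liver and 17070614 to 21387799 in fat. The marker sums differed between the labelled tissues: the hepatocyte sum was at most 1043 CPM in fat and at least 47159 CPM in liver. The adipocyte sum was at least 24207 CPM in fat and 321 to 4547 CPM in liver. In liver 7 of the 13 adipocyte markers passed the filter on low counts, and only Lep and Adig had 0 counts in every library. For several members, values without the library concerned stand beside the result. Other fold changes, those of the pathway genes among them, include these libraries.

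In liver 4 members fell under halofuginone: Gk, Mgll, Abhd5 and Lipe. They were 4 of the 7 members that passed the filter on low counts, each called by edgeR at an adjusted p under 0.05, and no member was called higher. Of the 3 that were not called, Pnpla2 and Pde3b had negative log2 ratios and Adrb3 a positive one. Over all 12311 liver genes tested, 23.2% were called, 10.5% in the lower direction. Without halofuginone replicate 1 the called members were 5, all lower, with Pde3b added, while 42.8% of all genes were then called. The calls depended on different choices. Lipe kept its call in 10 of 10 fits that left out 1 library, Gk in 4, Mgll in 3 and Abhd5 in 2. Calls over all liver genes fell as well, from 2850 to between 1275 and 1921, when any library but halofuginone replicate 1 was left out. Under the 10 other settings run (scaling, filter, design, DESeq2 and the deposited FPKM), Gk and Mgll each kept theirs in 10, and Lipe and Abhd5 each in 6.

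Gk, glycerol kinase, fell most. Vehicle livers were at 156, 120.4, 147, 121 and 129 CPM in replicates 1 to 5, and treated livers at 129, 36.8, 43.3, 42.2 and 38.9. Replicate 1 of the treated arm lay inside the vehicle range, and the other 4 lay far below it. The log2 ratio (halofuginone over vehicle) was −1.22 (SE 0.33, adjusted p 0.0249 by edgeR), and −1.77 (edgeR adjusted p 2.18e-06) without that library. Leaving out vehicle 1 or 3 or halofuginone 2, 3, 4 or 5 ended the call, at adjusted p values up to 0.0672, with the direction kept.

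Among the lipases, Mgll, the last enzyme of the chain, stood at 263, 237, 201, 262 and 278 CPM in vehicle and 216, 52.5, 97.8, 135 and 90.2 CPM under halofuginone. Treated replicate 1 again lay within vehicle, and 4 of 5 treated livers lay below every vehicle library. The log2 ratio was −1.07 (SE 0.30, adjusted p 0.0281 by edgeR), and −1.42 (edgeR adjusted p 0.000700) without replicate 1. Of the other single libraries left out, vehicle 1, 2, 4 or 5 or halofuginone 3, 4 or 5 each ended the call, at adjusted p values up to 0.0732.

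Lipe, encoding hormone-sensitive lipase, showed a small and even shift. Its vehicle libraries were at 17.2, 21.2, 18.0, 16.4 and 16.1 CPM and its treated ones at 13.9, 13.4, 12.9, 13.3 and 13.7 CPM. In CPM all 5 treated livers lay below every vehicle liver, replicate 1 included, which holds for 6.55% of all liver genes tested. In the deposited FPKM the arms overlapped, with treated replicate 3 at 5.35 FPKM and vehicle replicate 5 at 5.15. The means were 17.8 ± 2.05 and 13.4 ± 0.376 CPM (mean ± SD over 5 livers), with a log2 ratio of −0.40 (SE 0.092, adjusted p 0.0147 by edgeR). Without treated replicate 1 the ratio was −0.44 (edgeR adjusted p 0.00407). Scaling by library size alone, which moves the median of all liver genes by 0.16 on the log2 scale, gave Lipe −0.24 (edgeR adjusted p 0.0801), and the joint fit of both tissues gave −0.40 (edgeR adjusted p 0.207). On the FPKM, limma gave −0.19 with a pseudocount of 1 (adjusted p 0.110) and −0.22 with 0.1 (adjusted p 0.107), on the log2(FPKM + pseudocount) scale.

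Pnpla2, which encodes the rate-limiting lipase ATGL, did not pass the test: 74.8, 79.4, 72.0, 74.0 and 79.0 CPM in vehicle and 68.4, 45.6, 87.1, 83.7 and 78.7 CPM in treated livers. Treated livers lay on both sides of the vehicle range, 2 below and 2 above it. The log2 ratio was −0.061 (SE 0.15, adjusted p 0.794 by edgeR), and library size alone turned its sign (0.10).

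Abhd5, the ATGL coactivator, fell in liver. Its CPM was 23.0, 39.4, 38.1, 33.7 and 31.9 in vehicle and 32.0, 19.6, 18.5, 15.6 and 16.7 under halofuginone, and 4 of 5 treated livers lay below every vehicle liver. Vehicle replicate 1 was the lowest of its arm and treated replicate 1 the highest of its own. The log2 ratio was −0.70 (SE 0.20, adjusted p 0.0321 by edgeR), and −0.94 (edgeR adjusted p 0.000606) without treated replicate 1. Library size alone gave −0.55 (edgeR adjusted p 0.0513), and the replicate number as a block −0.74 (edgeR adjusted p 0.0698). On the FPKM, limma gave −0.42 (adjusted p 0.101) and −0.45 (adjusted p 0.103) with pseudocounts of 1 and 0.1. Any single library left out other than vehicle 1 and halofuginone 1 ended the call, at adjusted p values up to 0.0803.

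The members that control cAMP, Pde3b and Adrb3, did not pass the threshold in liver. Pde3b, the phosphodiesterase through which insulin lowers cAMP, was at 63.6, 63.1, 76.8, 62.6 and 61.7 CPM in vehicle and 70.0, 41.3, 39.5, 45.0 and 42.5 CPM in treated livers. Treated replicates 2 to 5 lay below every vehicle liver and replicate 1 lay among them. The log2 ratio was −0.46 (SE 0.15, adjusted p 0.0506 by edgeR), just outside the threshold, and −0.66 (edgeR adjusted p 0.000239) without replicate 1. DESeq2 called it with all libraries (adjusted p 0.0298).

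Adrb3, the β3-adrenergic receptor gene, was low in liver (10 to 47 counts per library), at 0.673, 0.551, 0.653, 0.747 and 0.819 CPM in vehicle and 2.33, 1.12, 0.716, 0.579 and 0.372 CPM in treated livers. Treated replicate 1 was highest, and the arms overlapped. The log2 ratio was 0.53 (SE 0.43, adjusted p 0.389 by edgeR), and −0.017 (edgeR adjusted p 0.970) without that library.

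Aqp7 and Acvr1c did not pass the filter. Aqp7, the glycerol channel of adipocytes, had 4, 1, 3, 7 and 1 counts in the vehicle livers and 0 in all 5 treated livers, and a count of 0 allows up to 3. With no filter edgeR called Aqp7 (adjusted p 0.0267), at these few counts. Acvr1c had 1, 0, 0, 2 and 3 counts in vehicle and 1, 0, 0, 0 and 1 in treated livers. A change in Acvr1c was not detectable at this depth.

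**Figure D2:**
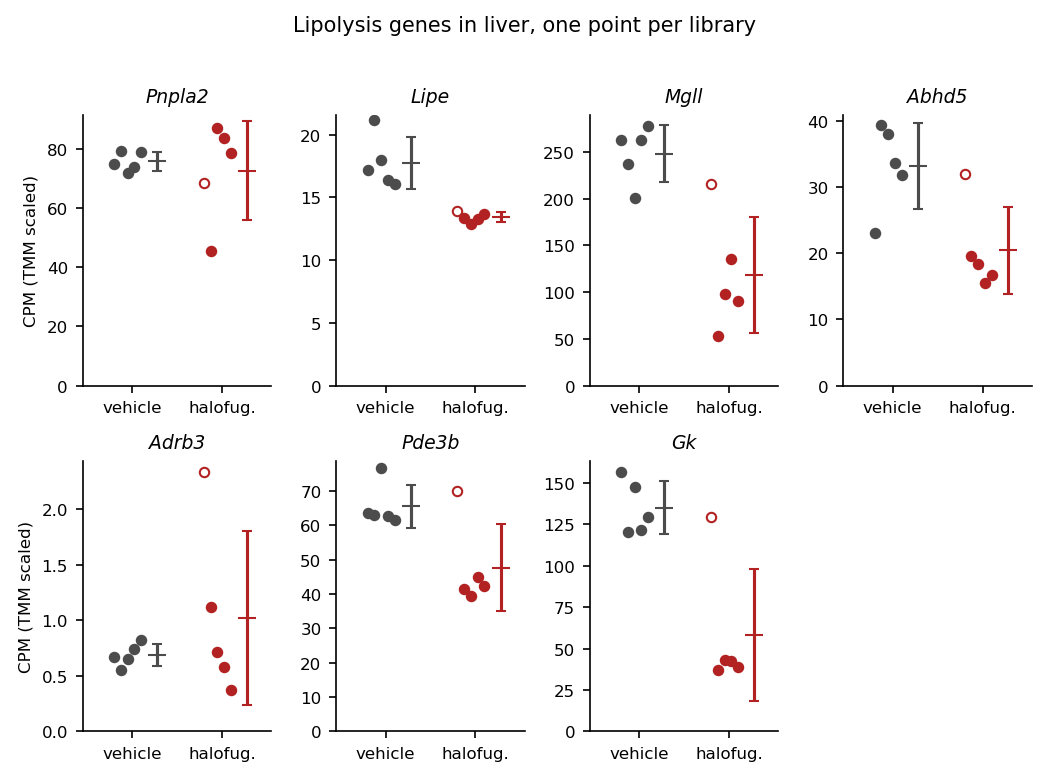
CPM of the 7 members that passed the filter in liver, 1 panel per gene, vehicle and halofuginone libraries as points with mean ± SD beside them (n = 5 each). Halofuginone replicate 1 is the open circle: it sits within the vehicle range for Gk (129 CPM), Mgll, Abhd5 and Pde3b, and below all of them for Lipe (13.9 CPM).

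Some marker sums shifted between the liver arms and others did not. Beside the counts of called markers below, 23.2% of all liver genes tested were called, 12.7% higher and 10.5% lower. The marker lists were chosen with earlier results of these data known. The hepatocyte sum was 125784 to 139141 CPM in vehicle and 47159 to 117004 under halofuginone, with 4 of 10 markers called lower and 1 higher. Of the 8 stroma and preadipocyte markers 4 of 7 tested were called lower, and the sum went from 160.4 to 202 CPM in vehicle to 88.2 to 151 CPM. Of 7 endothelial markers tested 3 were called lower and 1 higher, with overlapping sums (191 to 231 and 169 to 228 CPM). Of 10 macrophage markers tested 0 were called, and the sums overlapped (361 to 468 and 320 to 637 CPM). Of 3 lymphocyte markers tested 0 were called. Of the 7 brown fat markers only 3 passed the filter, and these were called lower (Cidea, Elovl3 and Ppargc1a). The sum went from 78.6 to 140.4 CPM to 22.0 to 67.9 CPM. Ucp1 had 0 counts in every liver, and Cidea and Ppargc1a are also pathway list genes. Of the 13 adipocyte markers 7 passed the filter, and 3 were called lower (Cfd, Fabp4 and Pparg) and 0 higher, with a median log2 ratio of −1.39. The adipocyte sum was 3007 to 4547 CPM in vehicle and 321 to 2620 CPM under halofuginone, mostly from Car3 and Acsl1, which average 1853 and 1783 CPM in vehicle livers. Of the markers that did not pass, Lep and Adig had 0 counts in every liver, and Plin1, Adipoq and Retn had at most 1 count in any liver. The part of these marker shifts in the members' liver results was not tested.

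In fat, 0 of the 9 members were called by edgeR, as were 0% of the 14030 genes tested, and DESeq2 also called 0 of the 9 (4.39% of all genes), as did the joint fit of both tissues (2.25%). At an unadjusted p under 0.05 were 2 members, Abhd5 and Acvr1c, against 13.4% of all genes. Both were higher in every treated library than in every vehicle library, a separation that 10.2% of all fat genes showed in that direction. In simulated counts with the spread of these 6 libraries and 200 changed genes, 11% of 2-fold and 67% of 4-fold changes were recovered. That simulation gave 85 calls, 7 of them false, while the real fat fit gave 0, so recovery in these data may differ. The fat values of all 9 members were smaller than a 2-fold change.

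Abhd5 was at 153, 155 and 134 CPM in vehicle fat and 204, 182 and 238 CPM in treated fat. The arms did not overlap. Its log2 ratio was 0.50 (SE 0.16, edgeR p 0.0186, adjusted p 0.286), and 0.44 (edgeR adjusted p 0.391) without vehicle replicate 3.

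Acvr1c, the gene of the ALK7 receptor, was at 40.5, 32.9 and 45.0 CPM in vehicle and 50.1, 66.8 and 51.8 CPM in treated fat, again without overlap. The log2 ratio came to 0.51 (SE 0.19, edgeR p 0.0305, adjusted p 0.325), and 0.62 without vehicle replicate 3. Neither gene met the threshold after adjustment.

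The 3 lipase genes overlapped between the arms. Pnpla2 ran at 2267, 2992 and 1245 CPM in vehicle fat and 3581, 2139 and 3006 CPM in treated fat, with a log2 ratio of 0.42 (SE 0.36, adjusted p 0.661 by edgeR). Treated replicate 1 was highest for Pnpla2, and without it the ratio was 0.25. Lipe ran at 1477, 1909.8 and 768 and 1255, 1149 and 1793 CPM, with a log2 ratio of 0.015 (SE 0.36, adjusted p 0.992 by edgeR). Mgll ran at 1345, 1629 and 678 and 1073, 1196 and 1101 CPM, with a log2 ratio of −0.12 (SE 0.32, adjusted p 0.912 by edgeR).

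Vehicle replicate 3 was the lowest of the 6 libraries for each of these 3 genes. It is also the library with the lowest adipocyte and highest macrophage marker sums, and without it the fold changes were 0.15 for Pnpla2, −0.27 for Lipe and −0.40 for Mgll on the log2 scale, none called by edgeR. Adrb3 and Aqp7 were lowest in that library too. Adrb3 was at 79.6, 126 and 49.6 CPM in vehicle and 68.8, 60.9 and 176 CPM in treated fat, with treated replicate 3 highest. That gave a log2 ratio of 0.26 (SE 0.50, adjusted p 0.864 by edgeR). Without vehicle replicate 3 it was −0.0095, and without treated replicate 3 it was −0.37.

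Pde3b, at 274, 154 and 207 CPM in vehicle and 213, 300.0 and 250.1 CPM in treated fat, had a log2 ratio of 0.26 (SE 0.25, adjusted p 0.706 by edgeR). Aqp7, at 180.1, 226 and 81.3 and 122, 112 and 173 CPM, had one of −0.26 (SE 0.38, adjusted p 0.816 by edgeR), and −0.58 without vehicle replicate 3. Gk, at 10.4, 11.4 and 25.5 and 19.2, 17.1 and 12.0 CPM, was highest in vehicle replicate 3. For Gk the log2 ratio was 0.034 (SE 0.38, adjusted p 0.980 by edgeR), and 0.57 without that library. Arms overlapped for all 3.

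**Figure D3:**
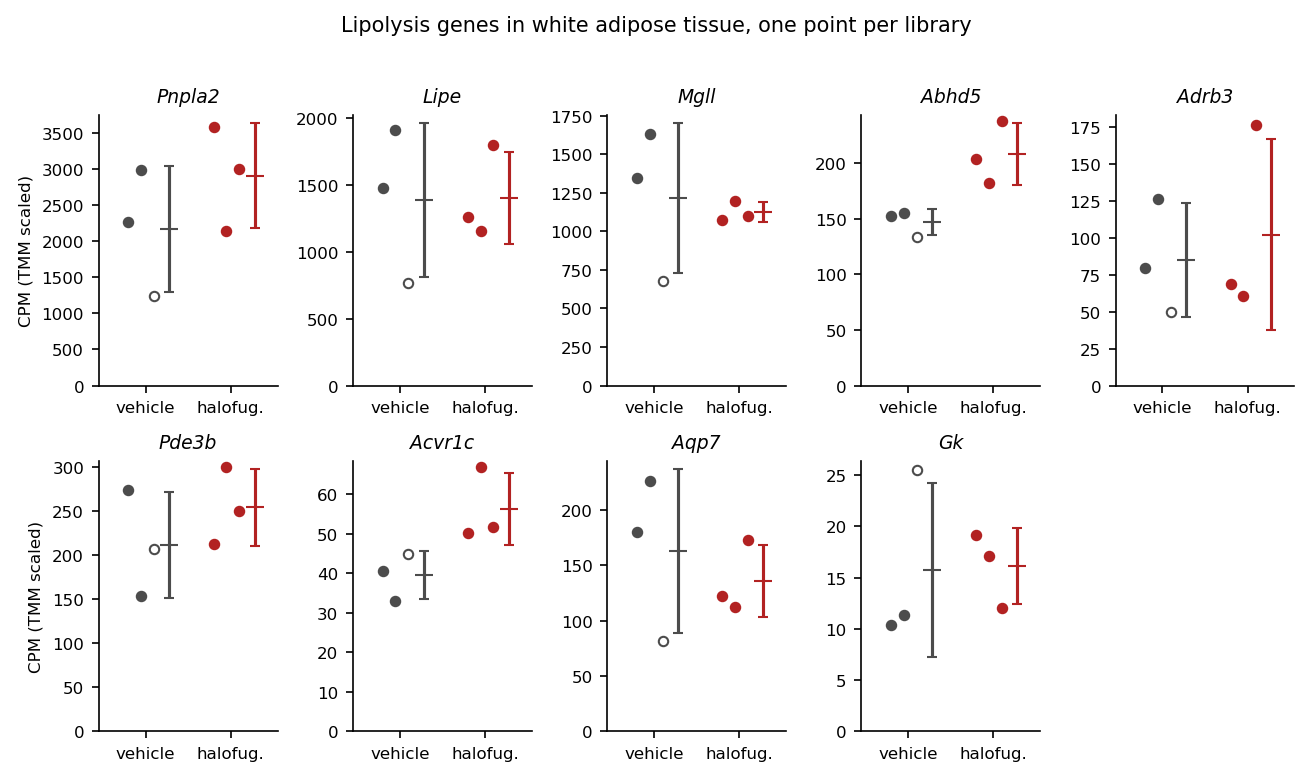
CPM of the 9 members in fat, 1 panel per gene, vehicle and halofuginone libraries as points with mean ± SD beside them (n = 3 each). Vehicle replicate 3, the open circle, is lowest for Pnpla2 (1245 CPM), Lipe, Mgll, Adrb3 and Aqp7 and highest for Gk (25.5 CPM), and only Abhd5 and Acvr1c show treated libraries all above vehicle.

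The summed macrophage markers in fat were lower in each treated library than in any vehicle library, at 4742 to 10781 CPM in vehicle and 3177 to 3365 CPM under halofuginone, and the stroma and preadipocyte sum went from 2307 to 3925 CPM to 1104 to 1719 CPM. The adipocyte sum overlapped, at 24207 to 40384 and 28355 to 33420 CPM, and 0 markers of any list were called. The part of these shifts in the fat values was not tested.

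Whether the drug effect differed between tissues was tested by subtracting the liver effect from the fat effect in the fit of all 16 libraries. No member was called by edgeR (0 of 9, against 0.949% of 14853 genes), and 4 had an unadjusted p under 0.05: Abhd5, Pde3b, Aqp7 and Gk (15.7% of all genes). DESeq2 called 2, Abhd5 and Aqp7 (4.86% of all genes). The difference was positive, fat above liver, for 8 of the 9, none of them called by edgeR. The share of all genes with a positive difference was not counted, and the median difference over all genes tested was −0.038. Abhd5 came closest at 1.19 (SE 0.30, edgeR adjusted p 0.0727). All 3 treated fat libraries lay above the vehicle range and 4 of 5 treated livers lay below theirs. Gk differed by 1.25 (SE 0.54, edgeR adjusted p 0.272) and Pde3b by 0.71 (SE 0.28, edgeR adjusted p 0.224). The lipases gave 0.93 (SE 0.49, edgeR adjusted p 0.377) for Mgll, 0.39 (SE 0.33, edgeR adjusted p 0.624) for Lipe and 0.46 (SE 0.38, edgeR adjusted p 0.606) for Pnpla2. Without halofuginone liver replicate 1 the share called over all genes rose to 7.07%, and 3 members were called: Abhd5 at 1.39 (edgeR adjusted p 0.00315), Gk at 1.76 (edgeR adjusted p 0.00760) and Pde3b at 0.88 (edgeR adjusted p 0.0302). Aqp7 and Acvr1c in this test rest on 7 or fewer counts per liver library.

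**Figure D4:**
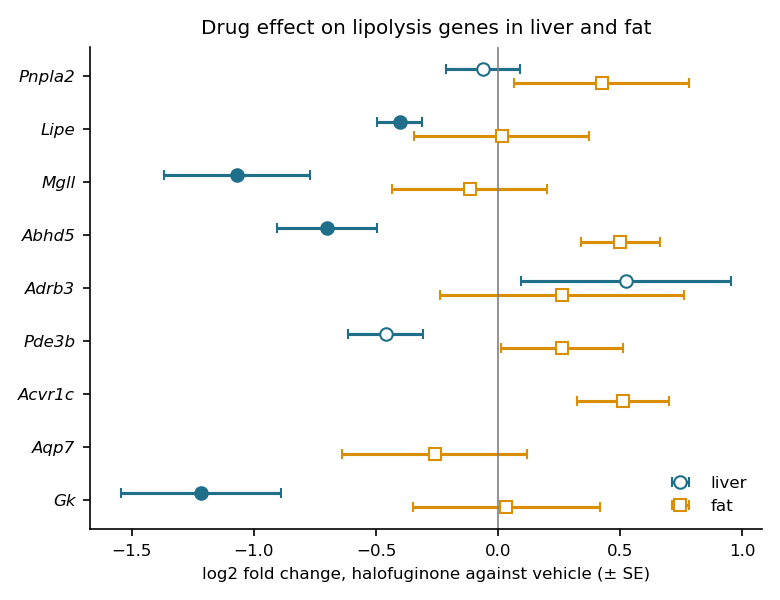
Log2 fold change (halofuginone over vehicle) ± SE of each member in liver and in fat, from the edgeR fit of each tissue. Filled points passed an adjusted p under 0.05: Gk, Mgll, Abhd5 and Lipe in liver lie left of 0, and no fat value is filled. Abhd5 lies at −0.70 in liver and 0.50 in fat.

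The wider pathway was read from 8 lists of 129 genes, of which 128 were in the tables. The lists were chosen with earlier results of these data known. A list's share above that of all genes can follow from that choice. In liver 107 passed the filter, and 26 were called by edgeR (24.3%, against 23.2% of all liver genes), 11 higher (12.7% of all genes) and 15 lower (10.5%). The median log2 ratio of the 107 was −0.19, against 0.017 over all genes tested. Of the 26 calls, 11 held in all 10 fits that left out 1 library: Acvr1b, Adcy6, Bscl2, Ces1g, Cidea, Fabp4, Fabp5, Pde4b, Pde5a, Plin4 and Pparg. Without halofuginone replicate 1 51 of 108 were called (47.2%, against 42.8% of all genes), 12 higher and 39 lower (21.2% and 21.6% of all genes), and 25 of the 26 remained. In fat 115 passed and 0 were called by edgeR. DESeq2 called 7 (4.39% of all genes; G0s2, Irs2 and Acvr1b higher, Adcy3, Adcy7, Adcy9 and Pnpla3 lower) and a joint fit of both tissues 6 (2.25%; G0s2, Irs2 and Smad7 higher, Adcy7, Adcy9 and Pnpla3 lower), and 26 had an unadjusted p under 0.05 (13.4% of all genes). The median of the 115 was 0.066, against 0.012 over all fat genes.

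Of 12 droplet coat and fatty acid carrier genes tested in liver, 5 were lower and 1 higher (50% called, against 23.2% of all liver genes), and the list's median was −0.49. Plin4, a perilipin of the droplet coat, was at 34.9, 60.1, 70.6, 56.1 and 39.7 CPM in vehicle and 10.6, 2.83, 2.00, 2.97 and 2.57 CPM in treated livers, with no overlap and a log2 ratio of −3.67 (SE 0.44, adjusted p 0.00158 by edgeR). Fabp4, the fatty acid carrier of adipocytes and macrophages, fell from 20.7 ± 7.77 to 6.66 ± 1.38 CPM (mean ± SD over 5 livers), a log2 ratio of −1.63 (SE 0.24, adjusted p 0.00374 by edgeR). Its relative Fabp5 rose at a log2 ratio of 4.04 (SE 0.81, adjusted p 0.00932 by edgeR), above the vehicle range in 4 of 5 livers. Cidea, which enlarges droplets, was at 20.9 ± 11.6 CPM in vehicle and had at most 4 counts in any treated liver. Bscl2, the droplet assembly protein seipin, fell at a log2 ratio of −0.53 (SE 0.11, adjusted p 0.0101 by edgeR). The ATGL inhibitors did not pass: G0s2 had −0.039 (SE 0.22, adjusted p 0.911 by edgeR) and Hilpda 0.61 (SE 0.31, adjusted p 0.171 by edgeR).

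Among 16 other lipases and hydrolases 3 were lower in liver and 1 higher, with a median of −0.57. The share called, 25%, was near the 23.2% of all liver genes. Ces1g, a carboxylesterase, was at 163, 174, 139, 183 and 174 CPM in vehicle and 94.3, 15.1, 10.8, 29.9 and 13.9 CPM in treated livers, without overlap, a log2 ratio of −2.35 (SE 0.54, adjusted p 0.0145 by edgeR). Lipa, the lysosomal acid lipase, had −0.75 (SE 0.22, adjusted p 0.0329 by edgeR) and the monoglyceride hydrolase Abhd6 −0.69 (SE 0.18, adjusted p 0.0222 by edgeR). Pnpla7, a lysophospholipase related to Pnpla2, had 0.67 (SE 0.17, adjusted p 0.0192 by edgeR). The call for Lipa held in 1 of 10 fits with a library left out, that for Abhd6 in 7 and that for Pnpla7 in 8.

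On the glycerol side 1 of 6 tested genes was called (16.7%). Gpd1, which makes glycerol 3-phosphate from the glycolytic intermediate, was at 398, 470.4, 392, 471 and 457 CPM in vehicle and 305, 92.2, 157, 277 and 198 CPM in treated livers. All 5 treated livers were below vehicle, at a log2 ratio of −1.09 (SE 0.27, adjusted p 0.0188 by edgeR), and leaving out halofuginone replicate 3 ended the call (adjusted p 0.0529). Aqp9, the glycerol channel of hepatocytes, had −0.40 (SE 0.19, adjusted p 0.148 by edgeR), with 3 of 5 treated livers below vehicle.

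In the adrenergic route to protein kinase A, 2 of 15 liver genes were called (13.3%, against 23.2% of all liver genes). The adenylyl cyclase Adcy6 fell in all 5 livers from 24.6 ± 3.19 to 14.8 ± 3.53 CPM (mean ± SD over 5 livers), a log2 ratio of −0.74 (SE 0.16, adjusted p 0.0110 by edgeR). Adcy9 rose at a log2 ratio of 0.39 (SE 0.11, adjusted p 0.0292 by edgeR), a call that held in 2 of 10 fits with a library left out. The receptor gene Adrb1 (−0.28), the stimulatory G protein gene Gnas (−0.29) and the kinase genes Prkaca (−0.14) and Prkar2b (−0.77) did not pass. For Gnas all 5 treated livers still lay below every vehicle liver in CPM, which holds for 6.55% of all liver genes tested.

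Of 21 brakes tested in liver 4 were higher and 1 lower, a share called (23.8%) near that of all liver genes (23.2%). Pde4b, a cAMP phosphodiesterase, rose in all 5 treated livers above vehicle, at a log2 ratio of 0.78 (SE 0.18, adjusted p 0.0152 by edgeR). The calls for Pde1b (0.89), Irs2 (0.47), Akt1 (0.28) and the Gi-coupled receptor gene Hcar2 (−1.73) held in 1 to 3 of the 10 fits with a library left out. Among 8 genes of the natriuretic and cGMP route 2 were called (25%). The cGMP phosphodiesterase Pde5a rose at a log2 ratio of 2.23 (SE 0.44, adjusted p 0.00903 by edgeR), in all 5 livers, and the clearance receptor gene Npr3 had −0.74 (SE 0.19, adjusted p 0.0229 by edgeR).

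The genes around ALK7 gave 2 calls in liver, both higher, of 12 tested (16.7%). Acvr1b, the sister type I receptor ALK4, was at 12.2, 9.37, 11.7, 13.8 and 12.5 CPM in vehicle and 12.5, 19.1, 18.5, 19.1 and 22.1 CPM in treated livers, a log2 ratio of 0.62 (SE 0.15, adjusted p 0.0175 by edgeR). Smad7, an inhibitor of the route, had 0.37 (SE 0.12, adjusted p 0.0440 by edgeR) and held in 2 of 10 fits. Inhbe, which encodes the subunit of activin E, a liver-made ligand of ALK7, was at 128, 76.5, 123, 163 and 127 CPM in vehicle and 99.3, 178, 218, 253 and 217 CPM in treated livers. Treated replicates 2 to 5 lay above every vehicle liver and replicate 1 did not. Its log2 ratio of 0.64 (SE 0.25, adjusted p 0.0774 by edgeR) missed the threshold. Inhbe had 0 counts in all 6 fat libraries, where its receptor gene Acvr1c was present at 32.9 to 66.8 CPM.

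Of 17 transcription factor genes 3 were lower in liver and 1 higher, again a share called (23.5%) near that of all liver genes (23.2%). Pparg, the adipocyte regulator that also drives droplet genes in fatty liver, was at 11.6, 22.1, 23.8, 26.0 and 9.96 CPM in vehicle and 6.81, 7.05, 8.44, 8.22 and 8.27 CPM in treated livers, without overlap. This amounted to a log2 ratio of −1.26 (SE 0.25, adjusted p 0.00947 by edgeR). Atf3 had 2.57 (SE 0.69, adjusted p 0.0243 by edgeR), Ppargc1a −0.92 (SE 0.31, adjusted p 0.0492 by edgeR) and Cebpb −0.32 (SE 0.10, adjusted p 0.0430 by edgeR), calls that held in 1 to 4 of the 10 fits. Cebpa had −0.30 (SE 0.20, adjusted p 0.290 by edgeR). Pparg and Fabp4 are also among the 13 adipocyte markers.

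In fat the arms did not overlap for 25 of the 115 list genes, 14 higher and 11 lower (10.2% and 10.4% of all fat genes), and none met the adjusted threshold by edgeR. Named below are those genes and, where said, some that overlapped. G0s2, the ATGL inhibitor, showed a wide gap: 103, 60.6 and 67.0 CPM in vehicle and 396, 334 and 195 CPM in treated fat, a log2 ratio of 2.01 (SE 0.33, adjusted p 0.123 by edgeR). Pnpla3, a lipase of the ATGL family, was at 36.7, 49.9 and 21.6 and 8.78, 3.30 and 9.05 CPM, a log2 ratio of −2.36 (SE 0.47, adjusted p 0.159 by edgeR). The droplet genes Plin5 and Plin3 had 0.84 (SE 0.28) and −0.31 (SE 0.16). Plin1, Cidec, Fabp4 and Hilpda overlapped, at −0.44, 0.26, 0.40 and 0.90.

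Adenylyl cyclase genes lay on both sides. Adcy7 was at 112, 102 and 159 CPM in vehicle and 32.8, 51.4 and 54.3 CPM in treated fat, a log2 ratio of −1.43 (SE 0.26, adjusted p 0.153 by edgeR). Adcy3 (−0.79) and Adcy9 (−0.75) were lower without overlap and Adcy4 (0.93) and Adcy5 (0.61) higher. The kinase subunit gene Prkar2b, abundant in adipocytes, overlapped at 0.44 (SE 0.31), as did Prkaca (−0.27), Gnas (−0.066) and Adrb1 (−0.0048).

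Of the brakes, the insulin receptor substrate Irs2 was at 79.0, 95.2 and 55.3 CPM in vehicle and 198, 181 and 126 CPM in treated fat, a log2 ratio of 1.14 (SE 0.26, adjusted p 0.179 by edgeR). The insulin receptor gene Insr (0.64) was also higher without overlap, and the phosphodiesterase gene Pde8a (−0.32) lower. The inhibitory G protein gene Gnai1 had 0.68 (SE 0.27), the neuropeptide Y receptor gene Npy1r −0.86 (SE 0.32) and Rgs2 −0.76 (SE 0.22), each without overlap. Adra2a, the α2A-adrenergic receptor gene, was low and overlapped (1.23 ± 0.917 and 0.902 ± 0.320 CPM, SD, n = 3 each). Without overlap in the other lists were Pparg (0.47), Ppara (0.96), Acvr1b (0.53), Gdf3, a ligand of ALK7 (−1.40), Gpd2 (0.52), Prkg1 (0.76), Pde5a (0.61), Ddhd2 (0.34), Abhd12 (−0.53) and Lipa (−1.05).

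Of 122 list genes tested, 7 (5.74%, against 0.949% of all genes) were called by edgeR for a drug effect that differed between the tissues. The higher share can follow from how the lists were chosen, with earlier results known. The fat effect minus the liver effect was 3.71 (SE 0.67, edgeR adjusted p 0.0229) for Plin4 and −1.16 (SE 0.18, edgeR adjusted p 0.00903) for Adcy9. Both calls, and that of Cidea, held in all 16 fits that left out 1 library. It was 2.03 (SE 0.40, edgeR adjusted p 0.0323) for G0s2, 2.01 (SE 0.42, edgeR adjusted p 0.0364) for Fabp4, 1.71 (SE 0.37, edgeR adjusted p 0.0438) for Pparg and −1.32 (SE 0.27, edgeR adjusted p 0.0364) for Adcy3. Those calls held in 8, 6, 3 and 2 of the 16 fits, with adjusted p values of at most 0.0929 and the direction kept.

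**Figure D5:**
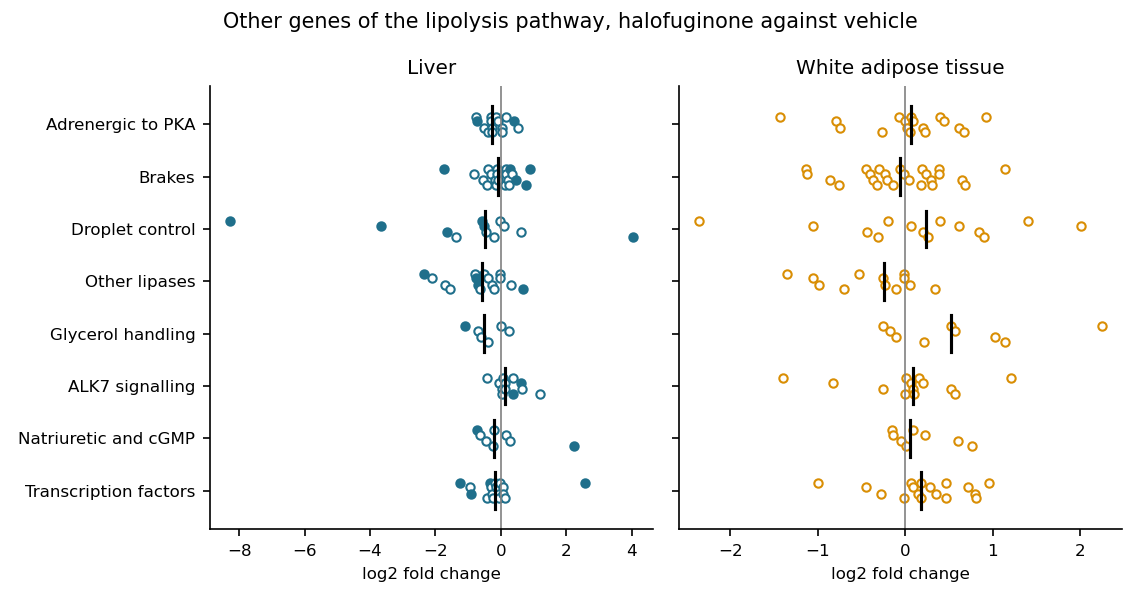
Log2 fold change (halofuginone over vehicle) of each tested gene of the 8 pathway lists in liver and fat, on axes of different range. Filled points passed an edgeR adjusted p under 0.05 and black bars are medians: in liver the medians of droplet genes (−0.49) and other lipases (−0.57) lie below 0, and in fat no point is filled.

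Genes whose level followed Pnpla2 most closely across the libraries of a tissue were found by Pearson correlation of log2 CPM, given here as a description over libraries that share treatment and composition. In the 10 livers, among 8817 genes at 5 CPM or more, they were Cyp2a12 (r = 0.94), Aqp4 (0.91) and Dbp (0.91). In the 6 fat libraries, among 10952 genes, they were Ell, Slc43a1 and Foxk1 (0.99 each). Lipe ranked 1067th in fat (r = 0.79) and 2977th in liver (r = 0.17).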

How the data were processed

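RNA was measured in 16 libraries, 10 of liver and 6 of white fat, grouped by their titles. Per the labels' protocols, Trizol RNA was selected with oligo(dT) and made into libraries with a NEBNext Ultra kit. Per the submitters' processing notes, the tools were fastp 0.18.0, Bowtie2 2.2.8, HISAT2, StringTie 1.3.1 and RSEM and the build was mm39. The authors deposited 1 table per tissue with a count and an FPKM per gene and library, per the file headers. The deposited counts are whole numbers, yet between 1 and 31 genes in each library pair a zero count with a positive FPKM, so they may be rounded estimates. The strand and the treatment of shared reads are not given in the sources used here. All value columns were mapped, with 0 left out. Of 22322 identifiers, 22267 were given symbols through the reference name table.

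Per tissue, edgeR 4.0.16 (R 4.3.3) was run with TMM scaling, the filterByExpr filter and a two-sided quasi-likelihood test, and genes were called at a Benjamini-Hochberg adjusted p under 0.05 over all genes tested. The contrast between tissues and the tissue difference came from 1 fit of all 16 libraries, taken as independent. The SE of a log2 ratio is its size over the square root of the F statistic. CPM are counts over the TMM-scaled library. FPKM were used for levels between genes. Members, lists, markers and tests were chosen with earlier results of these data known. Named genes were the members, a set of 16 (of which 1 is not reported here), and up to 4 per list and tissue with the largest change among called genes (in fat, among genes whose groups did not overlap) at 1 CPM or more. The alternatives were DESeq2 1.42.0, other scalings, filters and designs, limma 3.58.1 on the deposited FPKM (log2, pseudocount 1 or 0.1) and leaving out each library. The pipeline was tested on simulated counts with 200 changed genes: in liver (12311 genes) 78% of 2-fold changes were recovered. A count of 0 allows up to 3 counts, 0.0983 to 0.150 CPM in liver and 0.139 to 0.180 CPM in fat, covering counting error alone. Within groups, every pair of libraries differed by more than sampling noise (smallest chi-square per degree of freedom 31.2 in liver and 53.1 in fat). Reference promoters were RefSeq windows on GRCm38.p6.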

Additional observations from a re-analysis of the deposited data

Results flagged for a closer look

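Among 15 groups of 5 liver libraries, 4 held a library farther from its neighbour, as a share of the group's range, than the critical value of 0.71 for 5 samples, which chance gives for about 5% of groups. Halofuginone replicate 1 was that library in 3. It stood at 129.2 CPM for Gk, with the next at 43.3 CPM (a gap of 0.930 of the range), at 69.99 CPM for Pde3b, with the next at 45.0 CPM (0.819), and at 31.99 CPM for Abhd5, with the next at 19.6 CPM (0.757). In the vehicle arm, replicate 3 stood apart for Pde3b at 76.8 CPM, with the next at 63.6 CPM (0.871).

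The Abhd5 log2 ratio was negative in liver and positive in fat, where it was not called (edgeR adjusted p 0.286). Each treated fat library lay above and each treated liver library below its own vehicle mean. Treated liver replicate 1 did so narrowly, at 31.99 against 33.2 CPM, and lay inside the vehicle range. This rule was applied to the members alone, so no share over all genes is given. The fat effect minus the liver effect was 1.19 on the log2 scale. Tested in the fit of all 16 libraries it did not meet the threshold (edgeR adjusted p 0.0727).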

How the results depend on the processing

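Of the members, 4 were called in liver. With library size alone 2 were called, with the FPKM at a pseudocount of 1 also 2 and at 0.1 again 2, and with 1 library left out between 1 and 5. The tissue contrast called 0 members, but DESeq2 called 2, an adjusted p under 0.1 gave 1, and leaving out 1 library gave 0 to 3. Pathway genes called in liver numbered 12 to 51 with 1 library left out (15, 16 and 17 without vehicle 2, 4 and 3, 12 and 14 without halofuginone 3 and 5, and 51 without halofuginone 1). In fat DESeq2 called 7 of them and the joint fit 6. In fat 0 members were called under every alternative run.

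Directions that turned belonged to values that missed the threshold. Pnpla2 in liver was 0.10 with library size alone, 0.062 with either FPKM pseudocount and −0.13 to 0.056 with 1 library left out. Adrb3 in liver ran from −0.017 to 0.74. In fat Lipe was −0.0071 in the joint fit and ran from −0.27 to 0.32 with 1 library left out, and Mgll was 0.042 with either FPKM pseudocount and ran from −0.40 to 0.15. Adrb3 ran from −0.37 to 0.66, Aqp7 from −0.58 to 0.055 and Gk from −0.19 to 0.57. The Adrb3 contrast ran from −0.94 to 0.23. The causes were not tested.

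Within each tissue, vehicle and halofuginone libraries of the same number did not deviate together (correlations −0.156 to 0.0597 in liver and −0.569 to 0.112 in fat). In liver 1 of 5 and in fat 0 of 3 correlated best with their own number. Whether liver and fat libraries of one number deviate together was not tested. With the replicate number as a block 3 members were called in liver, with Abhd5 at −0.74 (edgeR adjusted p 0.0698), 0 in fat and 6 in the tissue difference, where Mgll (adjusted p 0.377), Abhd5 (0.114) and Pde3b (0.419) were not called. Over all genes, liver calls went from 2850 to 1901 under the block, 5312 without halofuginone 1 and 1275 without halofuginone 3. Fat calls went from 0 to 655 with DESeq2 and to 334 in the joint fit. Library size alone called 2789 liver genes higher and 838 lower, against 1558 and 1292 with TMM.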
